A study of Mus musculus with 17 samples.

Results

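The nuclear genes of the mitochondrial respiratory chain were examined in a histone H3.3 map of the newborn mouse lens. Members were chosen by symbol from the protein-coding genes of chromosomes 1 to 19 (GENCODE M21, mm10): symbols beginning Nduf (complex I), Sdh followed by a, b, c or d (complex II), Uqcr (complex III), Cox4 to Cox8 (complex IV) or Atp5 (complex V, the ATP synthase). The rule gave 95 gene records with 94 symbols, of 20807 protein-coding records. By complex these were 44, 8, 8, 17 and 18 genes. Of the 95, 82 code for subunits and 13 for assembly or coupling factors (Ndufaf1 to Ndufaf8, Sdhaf1 to Sdhaf4 and Atp5s). The symbol decides the complex here, so Ndufa4, whose protein is now placed in complex IV, was counted in complex I. Cyc1, a complex III subunit with another symbol, stood outside the rule.

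Chromatin immunoprecipitation with an antibody against H3.3 was performed on 2 samples of microdissected lens epithelium and 2 samples of lens fibers from CD1 mice (4 libraries). The sample titles give postnatal day 1 and the preparation protocol day 0.5. Each sample pooled 150 lenses, so that a library is a mean over many animals of either compartment. The labels name no engineered allele and no treatment, and the 2 groups differ in the compartment dissected. The bisulfite libraries and the pooled input of the series were not analysed here.

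The respiratory chain passes electrons from NADH (complex I) and succinate (complex II) through complex III to oxygen at complex IV, and complex V uses the resulting proton gradient to make ATP. All but a few of its subunits are coded in the nucleus, and these genes are active in nearly every cell type. The lens epithelium keeps its mitochondria, whereas maturing lens fibers degrade mitochondria, nuclei and other organelles. H3.3 is a histone H3 variant that is laid down outside DNA replication, in large part over genes in use.

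Each library was deposited as a list of islands, the broad stretches in which reads of that library were enriched, with the number of reads in each. The lists held 10389 and 14434 islands in epithelium 1 and 2 and 27059 and 35940 in fiber 1 and 2, with 1331369 to 5359085 reads inside islands. The total depth of the libraries is unknown, so a larger island list cannot be told apart from a deeper or cleaner library. For the same reason a gene without an island is a gene below the calling threshold, not a gene with 0 reads. In a bulk sample, H3.3 in fewer cells and less H3.3 in each cell cannot be told apart either. The compartments were checked against marker genes. All 10 lens fiber markers had an island in both fiber libraries, and Crygs, Crygd, Lim2, Bfsp1 and Dnase2b had one there only. All 6 lens epithelium markers had an island in at least 1 epithelium library, but each of them also had one in a fiber library, so the epithelium markers did not set the compartments apart. Of 15 markers of other eye and muscle cells, 7 had no island in any library (Kdr, Ptprc, Adgre1, Tyr, Mlana, Nrl and Crx). Among those with one, Pecam1 of endothelium had an island in all 4 libraries and Csf1r of macrophages in 3. The endothelium list had islands at 1, 2, 2 and 2 of its 3 genes in epithelium 1, epithelium 2, fiber 1 and fiber 2, and the striated muscle list at 0, 2, 1 and 2 of 3. The part of such cells in the results below was not tested.

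Every group comparison of single values below used an exact two-sided permutation test over the 4 libraries. With 2 against 2 there are 6 ways to assign them and the smallest p is 0.333, so no difference could pass 0.05. The report therefore says whether the groups overlapped. Values of the libraries are listed in the order epithelium 1, epithelium 2, fiber 1, fiber 2.

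H3.3 islands lay at respiratory chain genes more often in the fiber than in the epithelium libraries. An island overlapped the gene body with 1 kb on each side in 35.8%, 44.2%, 69.5% and 73.7% of the 95 genes, that is in 34, 42, 66 and 70 genes. The same shares of all protein-coding genes were 28.6%, 33.5%, 54.5% and 60.5%. Both fiber values exceeded both epithelium values, with group means of 40% ± 5.95 and 71.6% ± 2.98 (SD, n = 2 each), a difference of 31.6 percentage points (exact permutation p = 0.333). Respiratory chain genes stood above all genes in each of the 4 libraries, by a mean of 8.96 percentage points in epithelium and 14.1 in fibers. That excess differed by 5.11 percentage points between the compartments (exact permutation p = 0.333). Without epithelium 1 this difference was 3.35, and without fiber 1 it was 4.18 (exact permutation p = 0.667).

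The length of island over each gene followed the same order. The median gene had 0, 0, 3664 and 3898 bp of island in its window. On average 17.7%, 17.1%, 46.4% and 44.5% of the window was covered, with group means of 17.4% ± 0.438 and 45.4% ± 1.33 (SD, n = 2 each; exact permutation p = 0.333). Where a gene had an island, the median was 29.3, 29.4, 28.7 and 29.0 reads per kb of island, a fiber minus epithelium difference of -0.507. This median rests on other genes in each library and only on islands above the calling threshold, so it does not compare the compartments gene by gene. Its sign also changed with the members and islands taken (0.0518 higher in fibers for the 82 subunit genes alone). At the 29 genes with an island in all 4 libraries the medians were 29.5, 29.6, 30.7 and 31.1 reads per kb, with both fiber values above both epithelium values and means of 29.6 ± 0.0421 and 30.9 ± 0.237 (SD, n = 2 each; exact permutation p = 0.333).

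By complex, the ATP synthase genes had the highest share in every library and the complex III genes the smallest difference. Of the 18 complex V genes 8, 11, 17 and 17 had an island, against 14, 17, 28 and 30 of the 44 complex I genes. Complex IV had islands at 6, 6, 11 and 12 of its 17 genes. The small complexes II and III, with 8 genes each, had 3, 4, 6 and 6 and 3, 4, 4 and 5. The fiber and epithelium libraries did not overlap for complexes I, II, IV and V (exact permutation p = 0.333 for each). For complex III they touched at 50% and the means of 43.75% and 56.25% differed by 12.5 percentage points (exact permutation p = 0.667). The complexes were not tested against each other.

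**Figure D1:**
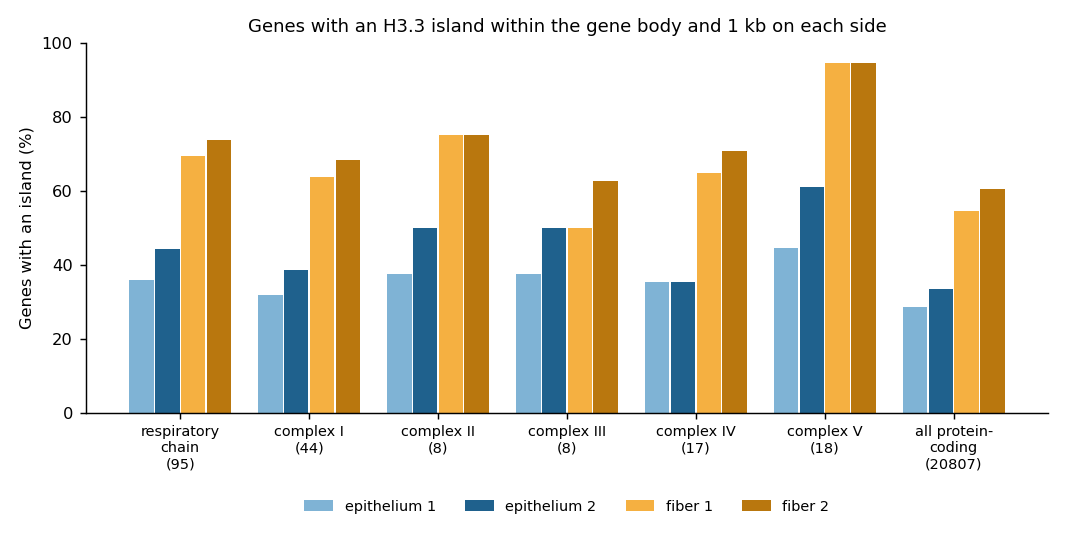
Share of genes with an H3.3 island over the gene body or 1 kb on either side (y axis, percent), by complex and for all protein-coding genes, with 1 bar for each library and the number of genes in parentheses. Both fiber bars stand above both epithelium bars in every group but complex III, and complex V reaches 94.4% in both fiber libraries.

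Subunit genes and assembly factor genes showed the same order of the libraries. The 82 subunit genes had islands in 37.8%, 45.1%, 72.0% and 75.6% of cases. The 13 assembly factor genes had islands in 3, 5, 7 and 8 cases. The 20 genes listed here as core subunits gave 8, 11, 16 and 17. Most of them carry redox centres or catalytic sites or are central structural proteins. For complex IV the list holds only Cox4i1, Cox5a and Cox5b, to which that description does not apply.

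Within complex I, 31 of the 44 genes had an island in at least 1 fiber library and 13 had none there. Ndufs7, an iron-sulfur subunit close to the quinone site, had 4480, 7074, 9674 and 9674 bp of island, and its whole body was covered in both fiber libraries. Ndufs8, another iron-sulfur subunit, had 4712, 3938, 5912 and 5912 bp. In both genes the fiber values lay above the epithelium values. Ndufs1, the largest iron-sulfur subunit, differed little, with 2833, 833, 2633 and 2233 bp, and the libraries overlapped. Ndufs3 and Ndufv2 were covered in the fiber libraries only, Ndufs3 over 3827 and 2994 bp and Ndufv2 over 3763 and 5522 bp. Ndufv1, the flavoprotein that takes electrons from NADH, ran the other way. It was the only member with an island in epithelium and none in fibers, and that island was present in epithelium 1 alone. The island lay over the gene end, not the start, and covered 3817 bp of the window. The window also reaches Doc2g, so this island cannot be given to Ndufv1 alone. Of all protein-coding genes, 1.71% had islands in epithelium only, against this 1 gene of 95.

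The accessory complex I subunits surround the core and hold no redox centre. Ndufa13 had 4758, 3021, 9579 and 9579 bp of island, Ndufb9 had 3288, 2400, 7733 and 6933 bp, and Ndufb10 had 2541, 3941, 4419 and 4141 bp. At all 3 the fiber libraries lay above the epithelium libraries. Ndufa4l2, a relative of Ndufa4 known to be induced in low oxygen, had 2434, 3188, 4188 and 4188 bp, whereas Ndufa4 itself had 1800 bp in fiber 2 alone. The window of Ndufa4l2 also reaches Shmt2 and that of Ndufa4 reaches Phf14. Ndufa6 and Ndufb7 had an island in epithelium 2 (2122 and 2400 bp) and in both fiber libraries (3000 and 5383 bp, and 6956 and 3800 bp) and none in epithelium 1. Ndufa3 was covered in fiber 1 only, and Ndufa8 and Ndufa12 in fiber 2 only. Of the 8 complex I assembly factor genes, Ndufaf3 and Ndufaf8 had islands in all 4 libraries, Ndufaf6 in both fiber libraries only (7405 and 7205 bp), and Ndufaf2 in epithelium 2 and both fiber libraries (2400, 6800 and 16823 bp). Ndufaf1, Ndufaf4, Ndufaf5 and Ndufaf7 had none.

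Complex II is the succinate dehydrogenase shared with the citric acid cycle. Its iron-sulfur subunit gene Sdhb had 5198, 2598, 18591 and 18198 bp of island. The membrane anchor genes differed from each other: Sdhd had 2200, 2812, 8456 and 6056 bp, and Sdhc had none in epithelium and 10236 and 11803 bp in fibers. The catalytic flavoprotein gene Sdha had an island in fiber 1 only, of 5200 bp and 19.8 reads per kb, a value below the 28.7 reads per kb of the median member there. Its assembly factor genes ranged from Sdhaf1, with islands in all 4 libraries, to Sdhaf3, with none. Sdhaf2, which helps attach the flavin of Sdha, had 1467, 11342 and 11267 bp outside epithelium 1.

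In complex III, the genes of 3 small subunits, Uqcrh, Uqcrq and Uqcr11, had islands in all 4 libraries. Uqcr11 had 3234, 5230, 5834 and 5834 bp. The core protein gene Uqcrc1 had 1223, 7023 and 6568 bp in epithelium 2 and the fiber libraries, and Uqcrc2 had 3425 bp in fiber 2 alone. Uqcrfs1, which codes for the Rieske iron-sulfur protein, had no island in any library. Neither did Uqcrb and Uqcr10. Cyc1, the cytochrome of the same complex that the symbol rule leaves out, had 2538, 2060, 4738 and 4738 bp.

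In complex IV, the tissue-restricted isoform genes had an island less often than the other genes in both fiber libraries and in epithelium 1, and more often in epithelium 2, a difference that was not tested. Altogether 2, 3, 3 and 4 of the 7 restricted isoform genes and 4, 3, 8 and 8 of the 10 others had one. Cox4i1 had 6186, 2979, 7986 and 7379 bp, whereas Cox4i2, known from lung and from low oxygen, had 3800, 2200, 0 and 2465 bp and was, with Ndufv1, the only member with a greater mean covered length in epithelium. Of the heart and skeletal muscle forms, Cox6a2 had no island, Cox7a1 had 478, 3935 and 3078 bp outside epithelium 1, and Cox8b had 1656 and 1856 bp in fibers only. The window of Cox7a1 also reaches Capns1 and that of Cox8b reaches Psmd13, so these islands cannot be given to the isoform gene alone. The widely used partners had 2159, 4340, 4540 and 4540 bp (Cox6a1), 1478 bp in fiber 2 alone (Cox7a2) and 4464, 3664 and 4464 bp outside epithelium 2 (Cox8a). Of the testis forms, Cox7b2 and Cox8c had no island, and Cox6b2 had 3209, 1294, 2809 and 3303 bp, more than the 540 and 2340 bp of its partner Cox6b1 in epithelium 1 and fiber 1. The window of Cox6b2 also reaches Fam71e2. Cox5a had islands in fibers only (3026 and 7953 bp), and Cox5b had 1200, 3481 and 3481 bp outside epithelium 1.

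In complex V, all 18 genes had an island in at least 1 fiber library and 16 in both. Atp5b, the catalytic beta subunit, had 6200, 8191, 9119 and 8119 bp and was covered in all 4 libraries. Atp5a1, its alpha partner, had none in epithelium 1 and then 5869, 10869 and 10141 bp. Atp5c1, the gamma subunit that forms the rotating shaft, had islands in fiber 2 only. These were 3 islands that together covered 11495 bp of its window, which also reaches Kin. The 3 genes for the same membrane ring protein each had islands in both fiber libraries, Atp5g1 with 8819 and 7819 bp, Atp5g2 with 11489 and 9689 bp and Atp5g3 with 3954 and 4354 bp. In epithelium they differed, Atp5g1 being covered in epithelium 1 only, Atp5g3 in epithelium 2 only and Atp5g2 in both. The stalk and membrane subunit genes were covered in fibers too: Atp5h, a stalk subunit, had 4874, 362, 6274 and 5474 bp, and Atp5f1, the stalk subunit b, had 3600 and 4000 bp in fibers only. Atp5d, the delta subunit of the shaft, had 8187, 5818, 9187 and 8418 bp and the highest reads per kb of the complex in fiber 2, 39.5. At Atp5j, the coupling factor 6 of the stalk, the libraries overlapped, with 1800, 3025, 2825 and 4225 bp. The window of Atp5j also reaches Gabpa, so these islands cannot be given to Atp5j alone. Atp5k had an island in fiber 1 alone, which covered all 3205 bp of its window.

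**Figure D2:**
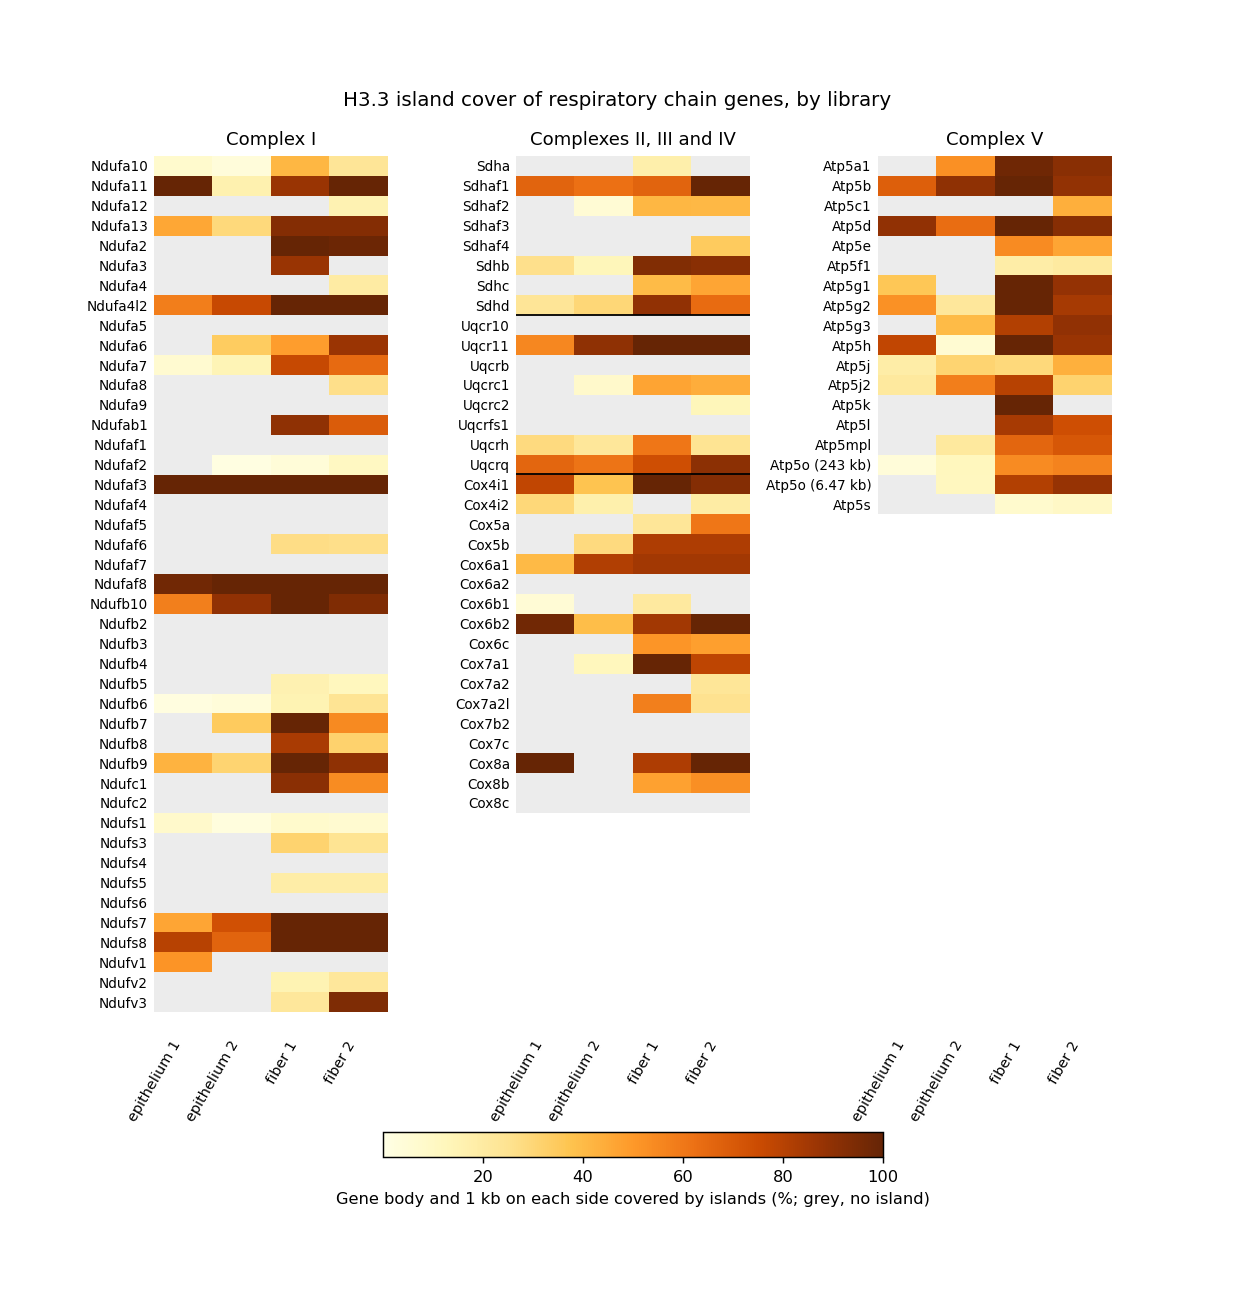
Percent of each gene's window (gene body with 1 kb on each side) covered by H3.3 islands in each library, for 94 of the 95 records in 3 columns, with black lines between complexes II, III and IV, and grey for no island. Most rows darken from the epithelium to the fiber columns, Ndufaf3 and Ndufaf8 are dark throughout, Ndufv1 is coloured in epithelium 1 only, and 20 rows are grey throughout.

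Sorted by the libraries in which they had an island, 29 of the 95 genes (30.5%) had one in all 4, against 21.5% of all protein-coding genes. Another 19 (20%) had one in both fiber libraries and no epithelium library, against 16.4% of all genes, and 10 (10.5%) in 1 fiber library only, against 8.93%. A further 16 had other combinations. No library gave an island at 20 genes (21.1%), against 35.0% of all genes. Epithelium 2 decided part of this: without it, 31 members had an island in both fiber libraries and not in epithelium 1. No share of all genes is set beside this count, so it does not describe the members in particular.

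The 19 genes covered in both fiber libraries only were Atp5e, Atp5f1, Atp5l, Atp5s, Cox5a, Cox6c, Cox7a2l, Cox8b, Ndufa2, Ndufab1, Ndufaf6, Ndufb5, Ndufb8, Ndufc1, Ndufs3, Ndufs5, Ndufv2, Ndufv3 and Sdhc. Their covered length ran from 1402 bp at Ndufs5 to 16598 bp at Ndufab1, which codes for the mitochondrial acyl carrier protein and was covered over 12798 bp in fiber 2. Ndufa2, a gene of 2226 bp, lay wholly inside islands in both. The gene start was inside an island in both fiber libraries at 11 of the 19, in 1 of them at 4, and in neither at Atp5e, Cox6c, Cox7a2l and Cox8b.

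The 20 genes without an island were Cox6a2, Cox7b2, Cox7c, Cox8c, Ndufa5, Ndufa9, Ndufaf1, Ndufaf4, Ndufaf5, Ndufaf7, Ndufb2, Ndufb3, Ndufb4, Ndufc2, Ndufs4, Ndufs6, Sdhaf3, Uqcr10, Uqcrb and Uqcrfs1. Of these 12 belong to complex I and none to complex V. They include Cox7c and Ndufb4, which code for ordinary subunits used in most tissues. Their median length of 8252.5 bp lay between the 11217 bp of the fiber-only genes and the 7119 bp of the genes covered in all 4 libraries. They had fewer neighbours, with a median of 1.5 other gene starts within 50 kb against 3 and 4. Sequence that occurs more than once in the genome was rare in both sets. The median member without a fiber island had 0.974% of its 75-base stretches repeated elsewhere, against 1.11% of the 62 members with an island in both fiber libraries, and no member exceeded 25.5%.

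At the 29 genes covered in all 4 libraries the islands were longer in fibers. The median covered length was 3234, 3000, 6107 and 5834 bp, with means of 3117 ± 165 and 5970.5 ± 193 bp (SD, n = 2 each; exact permutation p = 0.333). Both fiber values exceeded both epithelium values at 19 of the 29 (65.5%), against 71.8% of the 4482 genes of the genome with islands in all 4. Both lay below at none of the 29, against 1.76%. Reads per kb were higher in both fiber libraries at 13 (44.8%), against 31.3% of the same 4482 genes, and lower at 3 (10.3%), against 15.3%. The 3 with fewer reads per kb were Ndufa10, Ndufa7 and Sdhb.

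The largest differences in covered length among the 29 were at Atp5o, Sdhb and Ndufa10. The longer of the 2 Atp5o records spans 242585 bp (chr16:91684398-91926982), overlaps Cryzl1, Donson and Itsn1, and had 9200, 28800, 132400 and 138382 bp of island. The ordinary record of 6474 bp, which it overlaps at one end, had 0, 987, 6874 and 7474 bp, so both records gave the same order. Sdhb (chr4:140961203-140979193) differed by 14496.5 bp on average, and islands covered 26%, 13%, 93% and 91% of its window. Ndufa10 had 2660, 1191, 15191 and 8591 bp. The smallest differences were at Ndufaf3, Ndufaf8 and Ndufs1. Ndufaf3 (chr9:108565537-108567434), a complex I assembly factor gene whose window reaches Impdh2, was covered over all 3898 bp of its window in every library, with 32.4, 32.2, 34.9 and 35.8 reads per kb. Ndufaf8 had 3673, 3778, 3778 and 3778 bp and 30.3, 30.8, 35.3 and 31.6 reads per kb. These were the 2 members whose body lay wholly inside islands in all 4 libraries, and at such genes only the reads per kb could still differ.

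Islands at the members were most frequent near the gene start and extended further downstream of it than upstream. The start itself was inside an island in 23.2%, 24.2%, 54.7% and 64.2% of the members, against 13.1%, 15.3%, 38.3% and 43.6% of all genes (difference between the compartments 35.8 percentage points for members, exact permutation p = 0.333). In fiber 1 the share was 16.8% at 5 kb upstream, 56.8% at its peak 100 bp downstream and 45.3% at 5 kb downstream. In fiber 2 it was 22.1%, 66.3% at 200 bp downstream and 34.7%. Over all genes in fiber 1 the share was 14.2% at 5 kb upstream, 38.5% at its peak and 20.8% at 5 kb downstream, a steeper fall into the gene than at the members. In epithelium 1 the members went from 23.2% at the start to 18.9% at 5 kb downstream, and all genes from 13.4% at the peak to 6.76%. Epithelium 2 gave 24.2% and 15.8% at the members and 15.8% and 6.76% over all genes. The shapes were not tested against each other. By complex, the start was inside an island at 5, 3, 15 and 15 of the 18 complex V genes and at 10, 10, 23 and 26 of the 44 complex I genes.

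**Figure D3:**
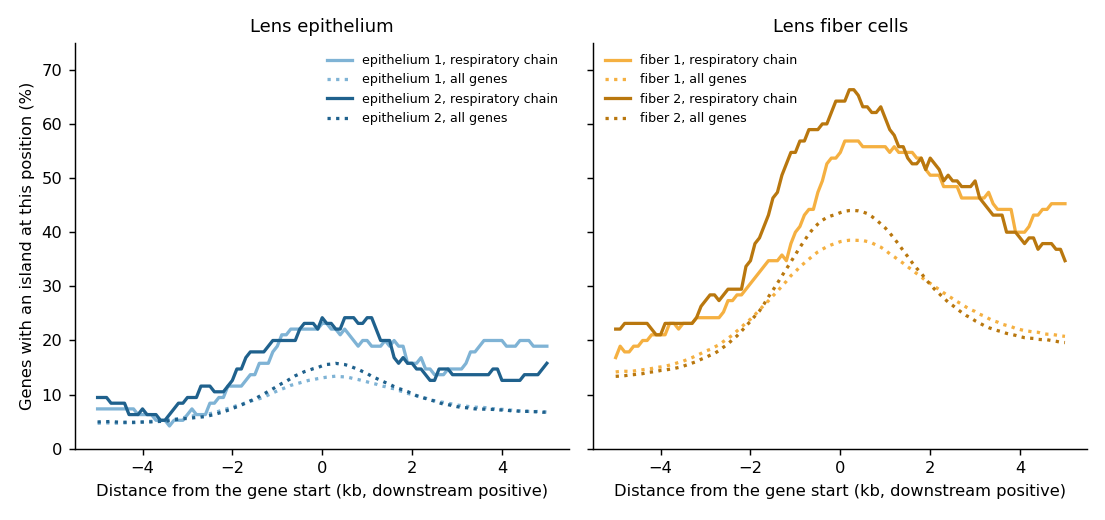
Share of genes whose position at a given distance from the gene start (x axis, kb, downstream positive) lies inside an H3.3 island (y axis, percent), for the 95 respiratory chain genes (solid) and all protein-coding genes (dotted), by library. The solid lines stand above the dotted lines of the same library at the start, by 23.2% against 13.1% in epithelium 1 and 64.2% against 43.6% in fiber 2.

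Respiratory chain genes are short and have close neighbours, and the excess over all genes was not the same at every length. Their median length was 7760 bp against 17629 bp, and 55 of the 95 windows (57.9%) overlapped another protein-coding gene, against 34.6% of all windows. Among genes under 3000 bp, 78.9% and 68.4% of the 19 members had an island in fiber 1 and 2, against 35.3% and 37.3% of all genes. From 12000 to 24000 bp, 12 and 14 of the 14 members had one, against 56.6% and 63.5%. At 24000 bp and more the order turned, with 50% and 57.1% of 14 members against 64.9% and 73.5% of all genes. Of the 11 members with no other gene start within 50 kb, none had an island in either epithelium library and 3 and 5 had one in fibers, that is 27.3% and 45.5%. All genes without such a neighbour stood higher in every library, at 21.8%, 27.0%, 50.9% and 59.97%. Of the 22 members with 4 to 7 such starts, 15, 16, 22 and 19 had one, or 68.2%, 72.7%, 100% and 86.4%, against 39.1%, 43.3%, 58.9% and 61.0% of all genes of that class. The islands themselves often spanned several genes, since 28.3%, 25.9%, 33.3% and 30.5% of those at members covered 2 or more gene starts. At the 40 members whose window touched no other gene the group means were 33.75% and 66.25%. The 13601 genes of the genome with such a window had means of 23.4% and 47.6%, so that the excess of these members was 10.3 and 18.6 percentage points, against 2.71 and 8.74 over all genes. Set against the 11242 genes in the length range of the members (the 10th to 90th percentile, 2203.2 to 26693.2 bp), the excess of the 95 members was 9.37 and 19.3 percentage points, and its difference between the compartments 9.94 in place of 5.11 (exact permutation p = 0.333).

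Since the fiber lists were longer, the shares were computed again with the same number of islands, 10389, from each library. With the islands that held the most reads, 35.8%, 41.1%, 55.8% and 52.6% of the members had one, against 28.6%, 27.7%, 33.8% and 32.8% of all genes. With the islands of the most reads per kb the shares were 35.8%, 37.9%, 43.2% and 41.1%, against 28.6%, 27.7%, 33.8% and 33.0%. The fiber values stayed above the epithelium values in both cases, but the difference of 31.6 percentage points went down to 15.8 and 5.26 (exact permutation p = 0.333 for both). The excess of the members over all genes depended on the choice. It differed between the compartments by 10.6 percentage points with the islands of the most reads (exact permutation p = 0.333), and by -0.0139 with those of the most reads per kb (exact permutation p = 1). With the second choice the mean shares of complexes II and IV differed, fiber minus epithelium, by -6.25 and -2.94 percentage points (exact permutation p = 1 for both). Much of the difference between the compartments thus moved with the number of islands taken. The part of library depth, which is unknown, was not tested.

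**Figure D4:**
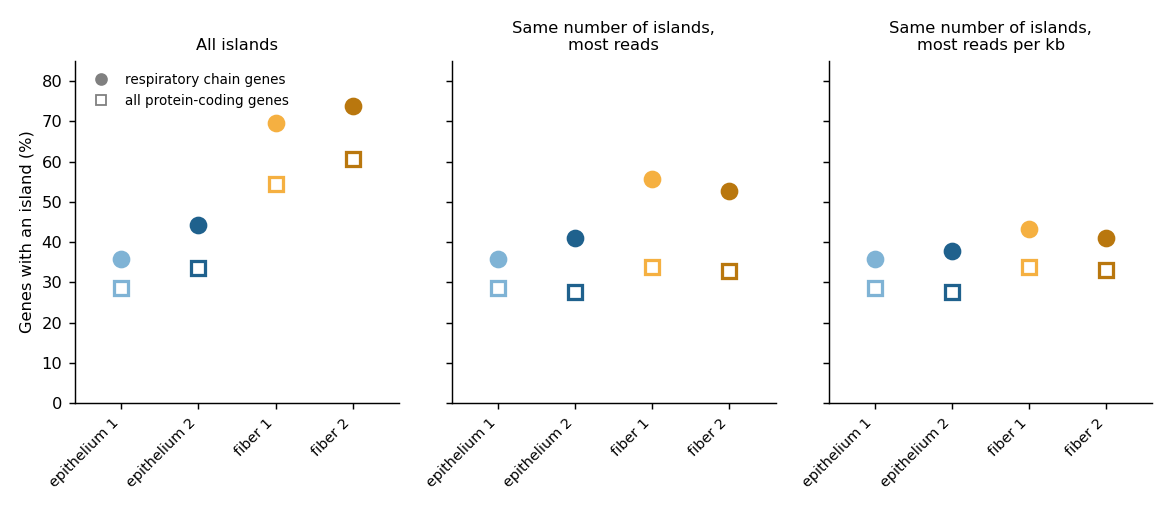
Share of respiratory chain genes (filled circles) and of all protein-coding genes (open squares) with an H3.3 island (y axis, percent) in each library, with all islands and with 10389 islands from each library. Circles stand above squares in every library and panel, and the fiber circles drop from 69.5% and 73.7% on the left to 43.2% and 41.1% on the right.

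Promoters were compared for sequence, since regulators of respiratory chain genes recognise short motifs. RefSeq promoters (GRCm38.p6, 250 bases before to 50 after the start) within 1000 bp of the annotated start were found for 71 of the 95 records and for 13566 of all genes. Members without one had the start inside an island more often in both fiber libraries than these 71. Searched on both strands were CATGCGC (NRF1), CCGGAAG (ETS factors such as the GABP complex), AAGATGG (YY1) and AAGGTCA (the ERR nuclear receptors). CATGCGC was in 19.7% of member promoters against 5.52% of all, CCGGAAG in 26.8% against 13.6%, AAGATGG in 14.1% against 6.68% and AAGGTCA in 11.3% against 3.85%. At least one of the 4 was in 39 of the 71 (54.9%), against 26.5% of all. The promoters were not matched for CpG content, and CATGCGC and CCGGAAG each hold a CpG. Under 10 CpGs were held by 3 of the 71 member promoters and by 4747 of the 13566. A match is a description of the letters and not a bound site.

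Promoters of 4 members whose start lay in an island in all 4 libraries are shown here with the matches in capitals, as the 250 bases before the RefSeq start. Matches that reach past the start count in the shares above but are not marked. These and the promoters that follow were chosen after their values were seen, to set promoters with matches beside each other.
Ndufa11 (chr17:56717512-56717761, plus strand): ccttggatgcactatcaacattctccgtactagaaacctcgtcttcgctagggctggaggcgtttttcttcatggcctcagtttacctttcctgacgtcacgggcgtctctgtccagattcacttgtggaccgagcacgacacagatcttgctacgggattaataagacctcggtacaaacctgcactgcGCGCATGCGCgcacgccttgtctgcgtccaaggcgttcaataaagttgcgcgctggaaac
Sdhb (chr4:140961021-140961270, plus strand): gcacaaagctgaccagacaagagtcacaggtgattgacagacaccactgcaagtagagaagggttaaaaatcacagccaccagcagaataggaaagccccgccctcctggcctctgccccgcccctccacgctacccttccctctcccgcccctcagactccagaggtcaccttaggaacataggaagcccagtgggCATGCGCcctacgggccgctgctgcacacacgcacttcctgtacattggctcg
Uqcrh (chr4:116075071-116075320, minus strand): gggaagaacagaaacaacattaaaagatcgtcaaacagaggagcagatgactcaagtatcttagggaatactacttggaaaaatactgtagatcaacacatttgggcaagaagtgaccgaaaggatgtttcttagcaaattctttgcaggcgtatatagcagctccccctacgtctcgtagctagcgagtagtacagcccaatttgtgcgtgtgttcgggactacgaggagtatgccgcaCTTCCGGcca
Uqcr11 (chr10:80406822-80407071, minus strand): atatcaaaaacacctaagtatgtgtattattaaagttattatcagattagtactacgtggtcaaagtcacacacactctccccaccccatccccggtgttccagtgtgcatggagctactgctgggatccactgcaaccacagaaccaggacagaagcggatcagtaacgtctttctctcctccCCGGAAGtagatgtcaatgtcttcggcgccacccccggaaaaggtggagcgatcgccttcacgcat
Ndufa11 has CATGCGC on both strands in one overlapping stretch, Sdhb has it once, and Uqcrh and Uqcr11 have CCGGAAG, on opposite strands. Past the bases shown, Sdhb also has the ETS letters after its start, and a CATGCGC match straddles the start of Uqcr11. Covered lengths were 6375, 1034, 5575 and 6375 bp at Ndufa11 and 2871, 2271, 6107 and 2471 bp at Uqcrh.

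The next 2 promoters belong to genes whose start was inside an island in both fiber libraries and no epithelium library, and were chosen because they hold matches. Ndufb5, Cox5a and Cox7a1, with the start inside an island in the same libraries, held none of the 4 motifs.
Ndufs3 (chr2:90904722-90904971, minus strand): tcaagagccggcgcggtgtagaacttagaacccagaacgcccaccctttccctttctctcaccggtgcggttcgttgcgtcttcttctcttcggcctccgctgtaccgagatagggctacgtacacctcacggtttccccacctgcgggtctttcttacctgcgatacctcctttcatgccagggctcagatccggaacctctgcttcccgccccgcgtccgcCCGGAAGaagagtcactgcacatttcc
Atp5l (chr9:44920743-44920992, minus strand): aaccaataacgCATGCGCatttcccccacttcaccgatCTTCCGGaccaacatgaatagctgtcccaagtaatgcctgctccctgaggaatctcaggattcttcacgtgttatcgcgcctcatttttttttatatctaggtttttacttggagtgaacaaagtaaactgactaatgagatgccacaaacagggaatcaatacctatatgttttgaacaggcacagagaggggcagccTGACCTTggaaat
Ndufs3 has CCGGAAG shortly before its start. Atp5l, which codes for a membrane subunit of the ATP synthase, has the NRF1, ETS and ERR letters in the same 250 bases and had 8542 and 7542 bp of island in fibers and none in epithelium.

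Among the 20 members without an island the same letters occurred as well, and 3 of their promoters are shown for comparison.
Ndufaf4 (chr4:24897833-24898082, plus strand): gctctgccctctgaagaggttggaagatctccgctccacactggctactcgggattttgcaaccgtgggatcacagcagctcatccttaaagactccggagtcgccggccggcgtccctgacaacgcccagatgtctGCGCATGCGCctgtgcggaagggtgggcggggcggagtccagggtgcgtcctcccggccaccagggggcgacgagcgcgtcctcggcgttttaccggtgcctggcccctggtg
Ndufb4 (chr16:37654369-37654618, minus strand): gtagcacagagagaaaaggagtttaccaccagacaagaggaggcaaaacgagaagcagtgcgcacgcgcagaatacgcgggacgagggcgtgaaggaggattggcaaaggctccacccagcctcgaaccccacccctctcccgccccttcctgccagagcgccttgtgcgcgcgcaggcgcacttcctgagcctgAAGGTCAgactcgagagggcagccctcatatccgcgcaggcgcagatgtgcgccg
Ndufaf1 (chr2:119662835-119663084, minus strand): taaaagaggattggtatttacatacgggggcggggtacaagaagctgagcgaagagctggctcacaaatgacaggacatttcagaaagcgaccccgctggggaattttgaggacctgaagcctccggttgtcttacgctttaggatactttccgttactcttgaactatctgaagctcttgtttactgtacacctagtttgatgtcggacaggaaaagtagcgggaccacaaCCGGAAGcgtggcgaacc
Ndufaf4, an assembly factor gene, has the same overlapping pair of CATGCGC matches as Ndufa11, Ndufb4 has AAGGTCA, and Ndufaf1 has CCGGAAG. Since they were chosen for their matches, these 9 promoters say nothing of how often the letters go with an island.

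Over all genes the start was inside an island more often at promoters with the ETS or NRF1 letters, in all 4 libraries. Both sets of letters hold a CpG, and promoters with and without them were not matched for CpG content. With CCGGAAG the shares were 21.4%, 23.3%, 64.4% and 71.8% of 1849 genes, against 13.5%, 16.3%, 39.5% and 45.3% of those without. With CATGCGC they were 17.8%, 23.8%, 62.3% and 69.0% of 749, against 14.4%, 16.9%, 41.8% and 47.7%. At the members the order differed by library. The start was inside an island at 7, 7, 14 and 11 of the 19 promoters with CCGGAAG (36.8%, 36.8%, 73.7% and 57.9%) and in 17.3%, 21.2%, 42.3% and 59.6% of the 52 without. For CATGCGC the shares were 21.4%, 42.9%, 64.3% and 71.4% of 14, against 22.8%, 21.1%, 47.4% and 56.1% of 57. With AAGATGG they were 20%, 20%, 60% and 50% of 10, against 23.0%, 26.2%, 49.2% and 60.7% of 61. Of the 8 promoters with AAGGTCA, 0, 1, 5 and 4 had the start in an island (0%, 12.5%, 62.5% and 50%), against 25.4%, 27.0%, 49.2% and 60.3% of the 63 without. Over all genes the shares with AAGATGG were 15.2%, 17.4%, 48.1% and 54.6%, against 14.6%, 17.2%, 42.5% and 48.5% without, and with AAGGTCA 11.5%, 15.3%, 33.3% and 37.9%, against 14.7%, 17.3%, 43.3% and 49.3%. None of these differences was tested.

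The letters AAGATGG lay mostly just after the start. In 9 of the 71 member promoters (12.7%) they lay in the 50 bases after the start and on the strand of the gene, against 1.97% of all promoters, and at 1 member, Cox7c, they straddled the start. A selection of 4 sites is shown with 7 bases on each side, 2 from genes with islands in all 4 libraries (Ndufs7 and Ndufaf8) and 2 from genes with none (Ndufs4 and Ndufs6).
Ndufs7 (chr10:80249466-80249486, plus strand): cgaggccAAGATGGcggcgct
Ndufaf8 (chr11:120098937-120098957, plus strand): agggcccAAGATGGcggcgcc
Ndufs4 (chr13:114388046-114388066, minus strand): ctacaggAAGATGGcggcggt
Ndufs6 (chr13:73328436-73328456, minus strand): caccggcAAGATGGcggcggt
The first letter lay 25 and 11 bases into the gene at Ndufs7 and Ndufaf8 and 36 and 34 bases at Ndufs4 and Ndufs6. At these 4 sites it lay closer to the start at the 2 genes with islands. At Ndufb8, with islands in both fiber libraries only, it lay further in than at any of the 4. The place of the letters was not tested against the islands.

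Over all genes the share of starts inside an island rose with the CpG content of the promoter in both fiber libraries. In both epithelium libraries that share was highest at 20 to 29 CpGs and lower at 30 or more. The median member promoter held 20 CpGs in its 300 bases against 16 for all genes, with the same median GC content of 58.3%. At like CpG content the 71 members with a matched promoter did not stand above all genes throughout. Members without one are left out here, although their start was inside an island more often in both fiber libraries. With 20 to 29 CpGs, the start was inside an island in 20%, 26.7%, 43.3% and 66.7% of 30 members, against 21.6%, 26.0%, 62.5% and 69.7% of 3300 genes. With 10 to 19, it was so in 25.8%, 25.8%, 54.8% and 51.6% of 31 members, against 16.4%, 19.5%, 48.7% and 57.2% of 3136 genes. In the small classes that remain, the start was inside an island at 0, 0, 1 and 1 of the 3 members with under 10 CpGs (0%, 0%, 33.3% and 33.3%, against 6.49%, 6.74%, 14.49% and 16.7% of all genes) and at 2, 2, 5 and 5 of the 7 with 30 or more (28.6%, 28.6%, 71.4% and 71.4%, against 18.8%, 23.0%, 64.8% and 73.1%). Members were thus above all genes in both fiber libraries under 10 CpGs, in fiber 1 alone at 10 to 19 and at 30 or more, and in neither at 20 to 29.

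The same counts were made for other gene groups of the mitochondrion and for other housekeeping complexes. Islands overlapped 26.9%, 42.3%, 74.4% and 84.6% of the 78 mitochondrial ribosomal protein genes and 28.6%, 36.7%, 81.6% and 87.8% of the 49 proteasome subunit genes. The 78 cytosolic ribosomal protein genes stood highest, with 67.9%, 76.9%, 96.2% and 97.4%. Of the 12 citric acid cycle genes 4, 6, 10 and 12 had islands, and of the 16 genes for other electron carriers and coenzyme Q synthesis 5, 7, 12 and 16. Among these 16, Etfb had the same reads per kb in fibers as the fiber marker Lim2 (35.5 and 35.7). Its islands there were thus counted at both genes. The 28 assembly factor genes with other symbols gave 12, 9, 20 and 23. Both fiber libraries exceeded both epithelium libraries in each of these lists. The respiratory chain genes had lower shares than any of them in both fiber libraries, a difference between lists that was not tested. In both epithelium libraries, at 35.8% and 44.2%, they stood above the mitochondrial ribosomal protein and proteasome lists and below the cytosolic ribosomal list. A greater share in fibers was thus not particular to the members, and it rose less at them than in the mitochondrial ribosomal protein and proteasome lists.

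Among 12 regulators of mitochondrial genes 7, 6, 10 and 12 had an island. Esrra, which codes for an estrogen-related receptor, had 8824, 7437, 12037 and 12037 bp. Gabpa, which lies inside the window of the member Atp5j in part, had 1800, 3676, 6876 and 7476 bp. Reads per kb were the same at both genes in all 4 libraries (34.4, 24.75, 30 and 28.2), so the same islands were counted at Gabpa and Atp5j. Nrf1 had islands in fibers only, with 5400 and 12813 bp covered, as did Tfam, the packaging factor of mitochondrial DNA, with 1680 and 1200 bp. Ppargc1a, the coactivator of these programmes, had 2200 bp in fiber 2 alone.

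**Figure D5:**
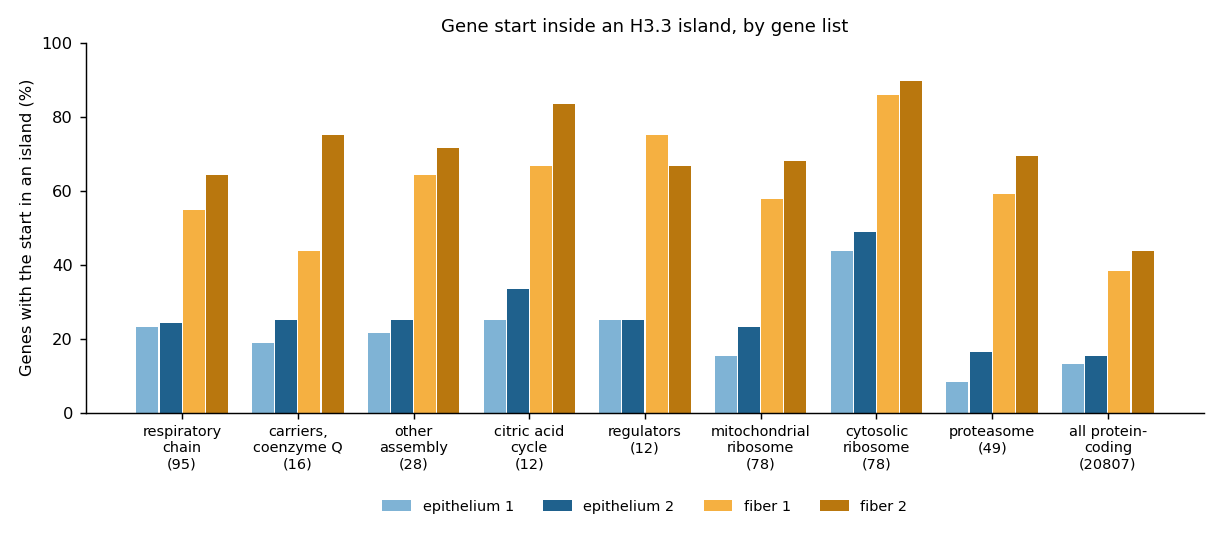
Share of genes whose start lies inside an H3.3 island (y axis, percent) in each library, for the respiratory chain genes, 7 other lists and all protein-coding genes, with the number of genes in parentheses. Fiber bars exceed epithelium bars in every list, and the cytosolic ribosomal protein genes have the highest share in all 4 libraries.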

How the data were processed

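H3.3 ChIP-seq of 2 lens epithelium and 2 lens fiber samples was used. According to the methods of the study and the labels, the authors aligned reads to mm10 with BWA and ran SICER2 on every library separately (window 200 bp, gap 600 bp, FDR 0.01). The deposited counts are raw reads per island, with no scaling between libraries. Whether duplicate reads were removed, and whether the input library served as control, is not given in the sources used here. The total depth is unknown. Island positions were read as starts counted from 0 and closed ends, in mm10, the assembly of the GENCODE M21 annotation used.

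From these files the island overlap, covered length, island reads per kb and cover of the gene start were computed for 20807 protein-coding genes with Python 3.11.15 and numpy 2.4.6. Group values were compared over libraries with exact permutation tests, and counts of genes were set beside all genes without a test. No count model was fitted, because genes without an island have no count. Labels call the duplicates biological replicates, and they share numbers between compartments without naming a shared preparation. The interval arithmetic was tested on simulated data with known answers. Repeated 75-base stretches were counted in the reference genome.

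Members and lists were chosen with earlier results of these data known. Core subunit genes, isoform pairs, all genes covered in both fiber libraries only, in epithelium only or in no library, and the 3 largest and 3 smallest differences in covered length among genes with islands in all 4 libraries were named. The values of 1 member are not reported here, and it stays in the counts. Alternatives varied the window, the overlap, the islands kept, the members and the libraries.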

Additional observations from a re-analysis of the deposited data

How the results depend on the processing

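For 13 tested values 192 alternatives were computed, of which 185 kept the direction and 6 reversed it; no alternative could pass 0.05. With 10389 islands per library by reads per kb, the difference between the compartments in the excess of members over all genes became -0.0139 percentage points, the complex II difference -6.25, the complex IV difference -2.94, reads per kb 3.20, and the median covered length did not differ (0). The difference in the excess, 5.11 in the report, was larger with 10389 islands by most reads (10.6), comparison genes in the length range of the members (9.94), the window at the gene start (8.64), no flank (8.34) and, chosen after seeing the data, members and comparison genes overlapping no other gene (8.30), and leaving out 1 library gave 3.35 to 6.87. Reads per kb at members overlapping no other gene differed by -2.04. Reads per kb also turned to 0.421 within 1 kb of the gene start and to 0.0518 for subunit genes only. Genes covered in both fiber libraries only numbered 8 and 9 with equal islands (by reads per kb and by reads) and 8 of the members overlapping no other gene; leaving out 1 library gave 21 to 31. Genes covered in all 4 libraries numbered 14 with islands of at least the median reads per kb and 8 of members overlapping no other gene, where fewer genes were counted. Genes without any island numbered 35 with either equal list and 11 of members overlapping no other gene. These counts are of members, with no share of all genes beside them, and describe only how they move with the processing. With a replicate block (paired by number) the difference in genes with an island stayed 31.6 percentage points and p became 0.5, the smallest that 2 pairs allow. The cause of these changes was not tested. Leaving out the long Atp5o record, an alternative chosen after seeing the data, gave 31.9 percentage points and changed no direction. Depth limits every comparison of compartments, since it is unknown and an island list grows with it.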

Other observations

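Respiratory chain genes of the X chromosome lie outside the rule and were looked at separately. Ndufa1, a complex I subunit gene, had islands in fiber 1 only, with 5163 bp covered and 25.7 reads per kb. Ndufb11, of complex I, and Cox7b, of complex IV, had no island in any library.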
